A study of Mus musculus with 8 samples.

Results

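The 10 genes described here encode the surface molecules through which a monocyte or macrophage raises or restrains a T cell response. They are Cd40, Cd80, Cd86, Icosl, Cd274, Pdcd1lg2, Havcr2, Lgals9, Vsir and Cd276. They were taken by name, each from the probe set row that the platform annotation maps to that symbol alone, and all 10 were found among the 22180 genes of the array. Irradiated mice, 4 in number, had their tumours treated with 20 Gy on a small animal irradiator, and the tumours of 4 sham mice received no radiation. All were female C57BL/6 mice, 8 weeks of age, carrying a subcutaneous tumour grown for 14 days from cell line 152. That line came from a spontaneous pancreatic tumour of a mouse with the KrasLSL-G12D/+, Trp53LSL-R172H/+ and Pdx1-Cre alleles, so that every tumour is of 1 line and lies under the skin rather than in the pancreas. Cells were collected 1 day after treatment by flow sorting for CD45, CD11b and high Ly6C, the profile of inflammatory monocytes and of the macrophages they form, and each mouse gave 1 array.

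A T cell that meets its antigen also reads a second signal from the presenting cell. CD80 and CD86 give it through CD28, and ICOS ligand does so through ICOS, while PD-L1 and PD-L2 bind PD-1 and restrain the cell. CD40 works in the other direction: it receives CD40 ligand from the T cell and licenses the presenting cell. Interferons are known to raise PD-L1 and CD40, and tumour macrophages are known to carry several of the inhibitory ligands.

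The deposited values are log2 expression levels, on which a step of 1 is a doubling. Array medians lay between 4.68 and 4.73, and arrays correlated with one another at 0.976 to 0.988. The mean level of each of the 10 genes over the 8 arrays lay above 4.70, the median of all probe set rows. The CD45 gene Ptprc, one of the sort's markers, averaged 11.62 ± 0.09 in irradiated mice and 11.66 ± 0.05 in sham mice (SD, n = 4 each). The CD11b gene Itgam averaged 11.12 ± 0.12 in irradiated mice and 10.94 ± 0.18 in sham mice. The Ly6C gene Ly6c2 ranged from 10.77 to 12.45 in irradiated mice and from 11.03 to 11.98 in sham mice. In bulk RNA, a change in the number of cells that carry a transcript and a change in the amount per cell cannot be told apart. Sham mice 2 and 3 stood apart from the other arrays in Camp, a neutrophil granule gene, at 8.02 and 10.10, against 3.08 to 3.69 on each of the other arrays. Camp was 1 of 13 neutrophil markers, whose mean was 6.16, 6.92, 7.51 and 6.26 in irradiated mice 1 to 4. In sham mice 1 to 4 that mean was 7.32, 7.26, 8.49 and 7.10, so sham mouse 2 did not stand apart in it.

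The DNA just upstream of Cd274, Pdcd1lg2 and Cd80, which varied together across arrays, is shown for orientation. That of Lgals9, the gene closest to the threshold in the comparison below, is also shown. Cd86, which varied with Cd80 and Cd274, had no sequence to show. Each run holds the 250 bases before an annotated transcript start in RefSeq (mouse build GRCm38.p6), 5′ to 3′ on the strand of the gene. Capitals mark matches to GAAA-NN-GAAA, the core of the interferon-stimulated response element, TTC-NNN-GAA, the STAT binding pattern named GAS, and GGG-NNNNN-CC, the core of the NF-kB pattern, where N is any base. Both strands were searched. The starts of Cd80 and Cd274 lie inside the span that RefSeq gives those genes, downstream of their outermost start.
Cd274 (chr19:29367188-29367437, plus strand): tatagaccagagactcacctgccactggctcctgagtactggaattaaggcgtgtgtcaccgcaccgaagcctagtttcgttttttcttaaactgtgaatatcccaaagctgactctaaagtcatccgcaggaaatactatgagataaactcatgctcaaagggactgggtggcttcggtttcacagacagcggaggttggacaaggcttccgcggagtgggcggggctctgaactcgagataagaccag
Pdcd1lg2 (chr19:29410669-29410918, plus strand): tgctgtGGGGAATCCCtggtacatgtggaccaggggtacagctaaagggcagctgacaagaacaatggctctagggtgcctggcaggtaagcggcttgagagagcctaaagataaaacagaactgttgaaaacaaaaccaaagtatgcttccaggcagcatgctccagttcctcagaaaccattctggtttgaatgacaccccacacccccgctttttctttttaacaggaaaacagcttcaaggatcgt
Cd80 (chr16:38458683-38458932, plus strand): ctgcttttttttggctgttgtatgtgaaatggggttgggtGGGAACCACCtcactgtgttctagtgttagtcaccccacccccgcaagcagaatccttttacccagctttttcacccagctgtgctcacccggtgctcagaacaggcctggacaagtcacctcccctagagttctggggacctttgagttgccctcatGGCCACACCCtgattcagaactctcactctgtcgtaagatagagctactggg
Lgals9 (chr11:78984925-78985174, minus strand): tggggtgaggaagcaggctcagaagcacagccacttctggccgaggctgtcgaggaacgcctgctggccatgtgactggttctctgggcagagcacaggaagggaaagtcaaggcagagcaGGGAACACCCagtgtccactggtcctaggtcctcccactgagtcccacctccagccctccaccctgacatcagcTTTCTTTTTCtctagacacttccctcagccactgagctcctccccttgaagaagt

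Windows of 300 bases, from 250 before to 50 after the start, were at hand for 8 of the 10 genes, all but Cd40 and Cd86. The Lgals9 window held 2 matches to the interferon pattern, TTTCTTTTTC beginning 55 bases before the start and TTTCTGTTTC at position 16 of the transcript. The second lies in this stretch, chr11:78984890-78984919 on the minus strand: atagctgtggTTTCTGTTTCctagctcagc. Of the 8 genes with a window, Lgals9 was the one with such a match, and 3.44% of all 32851 promoter windows hold one. No window of the 8 held the GAS pattern, which 8.3% of all windows hold. The NF-kB pattern was present in the windows of Cd80, Icosl, Pdcd1lg2, Lgals9 and Cd276, and in 50.8% of all windows. A match describes the letters only, and the absence of one says that they are not in this window.

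The comparison asked how the 10 transcripts stood in tumour monocytes 1 day after irradiation of the tumour. None of the 10 differed past the threshold between irradiated and sham mice, and the levels of the 2 groups overlapped for every one of them. Cd80, Cd274 and Lgals9 had the largest upward differences, of 0.35, 0.25 and 0.25 on the log2 scale, and Pdcd1lg2 the largest downward one, of -0.24. In limma, 0 of the 10 passed at an adjusted p of 0.05 and 0 at an unadjusted p of 0.05, where 0% and 6.07% of all 22180 genes did. The groups did not overlap for 3.68% of all genes and for 0 of the 10. A total of 7 of the 10 were higher in irradiated mice and 3 lower, against 42.2% higher and 57.8% lower of all genes, and their median difference was 0.12, against -0.03 for all genes. The median difference was 0.067 without irradiated mouse 2 and 0.071 without sham mouse 3, and without sham mice 2 and 3 it was 0.023, with 5 of the 10 higher. After quantile normalization 8 of the 10 and 50.4% of all genes were higher. The half-widths of the 95% intervals ran from 0.23 for Vsir to 0.92 for Pdcd1lg2, so the arrays leave a wider range of changes possible for some of these genes than for others.

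**Figure D1:**
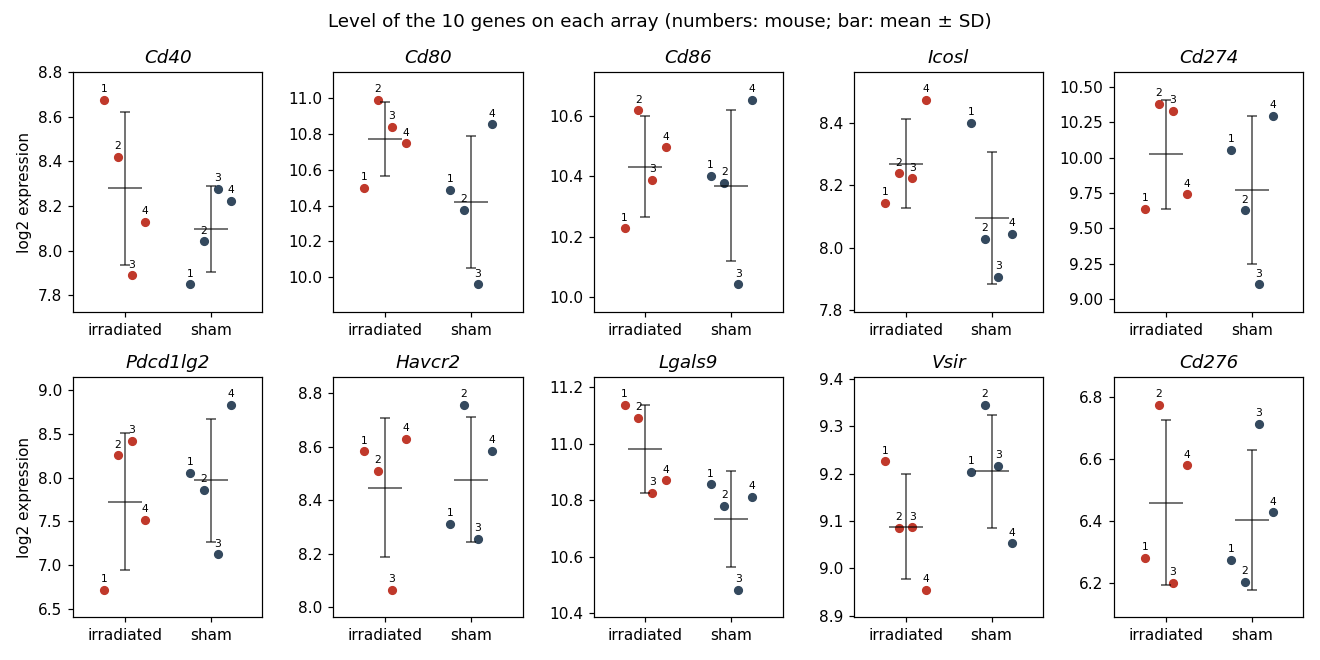
Log2 expression of each of the 10 genes on every array, irradiated mice left (red) and sham mice right (dark blue), with the mouse number beside each point; the bar is the group mean with its SD (n = 4 each). The groups overlap in each panel, and sham mouse 3 is the lowest point for Cd80, Cd86, Icosl, Cd274 and Lgals9. The vertical axes differ between panels and do not start at 0.

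**Figure D2:**
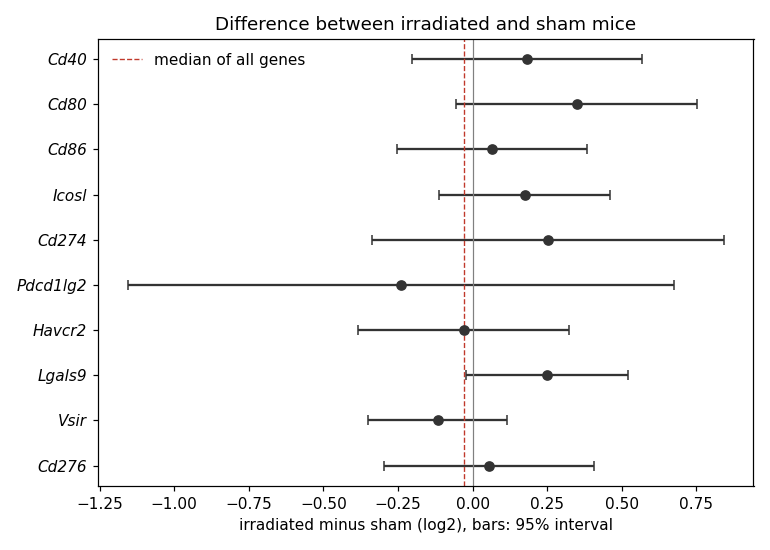
Difference between irradiated and sham mice for each gene on the log2 scale (point) with its 95% interval from limma (bar). Every interval includes 0 (grey line), and the dashed red line is the median difference of all genes, -0.03.

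Among the receptors that a monocyte carries, Cd40 stood at 8.68, 8.42, 7.89 and 8.13 in irradiated mice 1 to 4, and at 7.85, 8.04, 8.28 and 8.22 in sham mice 1 to 4. Its highest levels were those of irradiated mice 1 and 2, while irradiated mice 3 and 4 lay within the sham range. The difference was 0.18 (95% interval -0.20 to 0.57; adjusted p = 0.897 in limma), and it was 0.049 without irradiated mouse 1, 0.099 without sham mouse 1 and 0.31 without irradiated mouse 3. Havcr2, which encodes TIM-3, an inhibitory receptor of T cells that monocytes and dendritic cells also carry, stood at 8.58, 8.51, 8.07 and 8.63 in irradiated mice. It stood at 8.31, 8.76, 8.26 and 8.58 in sham mice. The 2 groups covered nearly the same range, with a difference of -0.03 (95% interval -0.38 to 0.32; adjusted p = 0.982 in limma). Its sign depended on the arrays used, from -0.10 without sham mouse 3 to 0.097 without irradiated mouse 3.

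Cd80 and Cd86 encode the B7 ligands that share the activating receptor CD28 and the inhibitory receptor CTLA-4. Cd80 stood at 10.50, 10.99, 10.84 and 10.75 in irradiated mice, and at 10.49, 10.38, 9.96 and 10.85 in sham mice. The irradiated mice all lay above sham mice 1 to 3, but sham mouse 4 exceeded each of them except mouse 2. The difference of 0.35, or 1.27-fold (95% interval 0.96-fold to 1.69-fold; adjusted p = 0.822 in limma), was 0.20 without sham mouse 3 and 0.098 without sham mice 2 and 3. Cd86 stood at 10.23, 10.62, 10.39 and 10.50 in irradiated mice and at 10.40, 10.38, 10.04 and 10.66 in sham mice. Sham mice held both its lowest and its highest level. Its difference was 0.063 (95% interval -0.25 to 0.38; adjusted p = 0.956 in limma), 0.159 without sham mouse 4 and -0.046 without sham mouse 3.

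Icosl encodes the ligand of ICOS, a receptor of activated T cells. Its levels were 8.14, 8.24, 8.22 and 8.48 in irradiated mice, against 8.40, 8.03, 7.91 and 8.05 in sham mice. Sham mouse 1 was the one array of its group within the irradiated range. The difference was 0.17 (95% interval -0.11 to 0.46; adjusted p = 0.861 in limma), and without sham mouse 1 it was 0.28, with no overlap of the remaining arrays. The share of all genes without overlap on those arrays is not given here. The difference of Icosl was 0.106 without irradiated mouse 4 and 0.047 without sham mice 2 and 3.

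Cd274 encodes PD-L1 and Pdcd1lg2 encodes PD-L2, the ligands of the inhibitory receptor PD-1, and in RefSeq the predicted gene Gm36043 alone starts between them on chromosome 19. Cd274 stood at 9.64, 10.38, 10.33 and 9.74 in irradiated mice and at 10.06, 9.63, 9.10 and 10.30 in sham mice. High and low arrays were found in both groups. The difference of 0.25 (95% interval -0.34 to 0.84; adjusted p = 0.902 in limma) corresponds to 1.19-fold, with an interval from 0.79-fold to 1.79-fold. It was 0.030 without sham mouse 3, 0.43 without sham mouse 4 and -0.153 without sham mice 2 and 3. Pdcd1lg2, the most variable of the 10 over the 8 arrays, stood at 6.72, 8.25, 8.42 and 7.52 in irradiated mice. It stood at 8.05, 7.86, 7.12 and 8.83 in sham mice, so that the lowest array was irradiated mouse 1 and the highest sham mouse 4. Its difference of -0.24 (95% interval -1.16 to 0.67; adjusted p = 0.943 in limma) was 0.096 without irradiated mouse 1, 0.048 without sham mouse 4, -0.52 without sham mouse 3 and -0.72 without sham mice 2 and 3.

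Lgals9 encodes galectin-9, a secreted lectin that binds TIM-3 among other surface molecules. Its levels were 11.14, 11.09, 10.82 and 10.87 in irradiated mice, against 10.86, 10.78, 10.48 and 10.81 in sham mice. The groups were close to separate: sham mouse 1 alone exceeded an irradiated mouse, and that was irradiated mouse 3. The difference was 0.25, or 1.19-fold (95% interval 0.98-fold to 1.43-fold; adjusted p = 0.822 in limma), and the lowest value with 1 array left out was 0.165, without sham mouse 3. Without sham mice 2 and 3 the difference was 0.147. After quantile normalization the groups did not overlap for Lgals9, with a difference of 0.27. The share of all genes without overlap after that step is not given here.

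Vsir encodes VISTA, an inhibitory B7-like molecule of myeloid cells, and had the smallest spread of the 10. Its levels were 9.23, 9.09, 9.09 and 8.95 in irradiated mice, against 9.20, 9.35, 9.22 and 9.05 in sham mice. Both groups covered a narrow range, within which they overlapped. The difference was -0.12 (95% interval -0.35 to 0.12; adjusted p = 0.892 in limma), -0.070 without sham mouse 2, -0.072 without irradiated mouse 4 and -0.040 without sham mice 2 and 3. Cd276 encodes B7-H3, a B7 family molecule also carried by tumour and stromal cells. Its levels were 6.28, 6.78, 6.20 and 6.58 in irradiated mice, against 6.28, 6.20, 6.71 and 6.43 in sham mice. The groups covered almost the same range, with a difference of 0.054 (95% interval -0.30 to 0.41; adjusted p = 0.967 in limma), 0.157 without sham mouse 3 and -0.051 without irradiated mouse 2.

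Several of the 10 genes varied together across the 8 arrays, though no pair of them passed adjustment. Cd80, Cd86 and Cd274 were all lowest on sham mouse 3, where Pdcd1lg2 was second lowest after irradiated mouse 1, and all 4 genes were among their higher levels on sham mouse 4 and irradiated mouse 2. They parted on irradiated mouse 4, where Cd80 was high at 10.75 and Cd274 and Pdcd1lg2 were low at 9.74 and 7.52. Cd80 and Cd274 correlated at a Pearson r of 0.908 (exact permutation p = 0.00342, adjusted p = 0.0893) and a Spearman rho of 0.905 (exact permutation p = 0.00456, adjusted p = 0.205) over 8 arrays, two-sided. Without the 2 arrays farthest from the median of Cd80, sham mouse 3 and irradiated mouse 2, r was 0.728. Of the other genes of the array, 0.487% correlated with Cd274 at least as strongly as Cd80 did. Cd80 and Cd86 correlated at 0.883 (exact permutation p = 0.00397, adjusted p = 0.0893; rho = 0.81, exact permutation p = 0.0218, adjusted p = 0.314), or 0.639 without the same arrays, and 0.473% of other genes correlated with Cd86 at least as strongly as Cd80 did. Cd274 and Pdcd1lg2 correlated at 0.816 (exact permutation p = 0.0139, adjusted p = 0.156; rho = 0.786, exact permutation p = 0.0279, adjusted p = 0.314), or 0.839 without them, and 2.28% of other genes correlated with Cd274 at least as strongly as Pdcd1lg2 did. Cd80 and Pdcd1lg2 correlated at 0.644 (exact permutation p = 0.0838, adjusted p = 0.472; rho = 0.667, exact permutation p = 0.0831, adjusted p = 0.374), or 0.552 without them, and 8.87% of other genes correlated with Pdcd1lg2 at least as strongly as Cd80 did. Of all 45 pairs among the 10 genes, 5 reached an unadjusted exact permutation p under 0.05 for Pearson's r and 0 did after adjustment over the 45. With each group's mean taken out, r was 0.936 for Cd80 with Cd274, 0.966 for Cd80 with Cd86 and 0.93 for Cd274 with Pdcd1lg2.

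Marker means of T and NK cells and of epithelial, fibroblast and endothelial cells were high where Cd274 and Pdcd1lg2 were low. The mean of 12 T and NK cell markers was 6.96, 5.49, 5.48 and 6.87 in irradiated mice 1 to 4 and 5.57, 7.83, 8.04 and 5.97 in sham mice 1 to 4. The 4 arrays with the highest means, irradiated mice 1 and 4 and sham mice 2 and 3, were the 4 arrays with the lowest Cd274 and also those with the lowest Pdcd1lg2. For Cd80 and Cd86, 3 of those 4 were among the 4 lowest. The mean of 12 epithelial, fibroblast and endothelial markers was highest on the same 4 arrays, at 7.37 and 7.22 in irradiated mice 1 and 4 and 6.97 and 7.59 in sham mice 2 and 3, against 6.45 and 6.44 in irradiated mice 2 and 3 and 6.19 and 6.71 in sham mice 1 and 4. The mean of 12 macrophage markers stood at 9.16, 9.31, 9.61 and 9.02 in irradiated mice and at 9.39, 9.13, 8.98 and 9.56 in sham mice, so that those 4 arrays also held its lowest values. Of these 12, 6 were higher and 6 lower, and Csf1r, the gene of the macrophage growth factor receptor, had the smallest p, with a difference of -0.165 (adjusted p = 0.832 in limma). Of the T and NK markers, 11 of 12 were lower in irradiated mice, against 57.8% of all genes. Their mean was highest on sham mice 2 and 3, while sham mice 1 and 4 lay below irradiated mice 1 and 4. Of the 12 markers, 1 had a mean under 4.70. Klrd1, an NK cell receptor gene, had the smallest p of them, with a difference of -0.81 (adjusted p = 0.819 in limma). The T and NK marker mean also entered the fit as a covariate, which was added with the values known. The difference between irradiated and sham mice was then -0.0096 for Cd274, -0.60 for Pdcd1lg2, 0.21 for Cd80 and 0.21 for Lgals9. In limma 0 of the 10 passed at an adjusted or an unadjusted p of 0.05. Pdcd1lg2 had the smallest unadjusted p in limma, 0.0575 (adjusted p = 0.703). The other 2 marker means, which set the same 4 arrays apart, were not entered, so these cell types cannot be told apart here. What part each had in the levels was not tested.

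**Figure D3:**
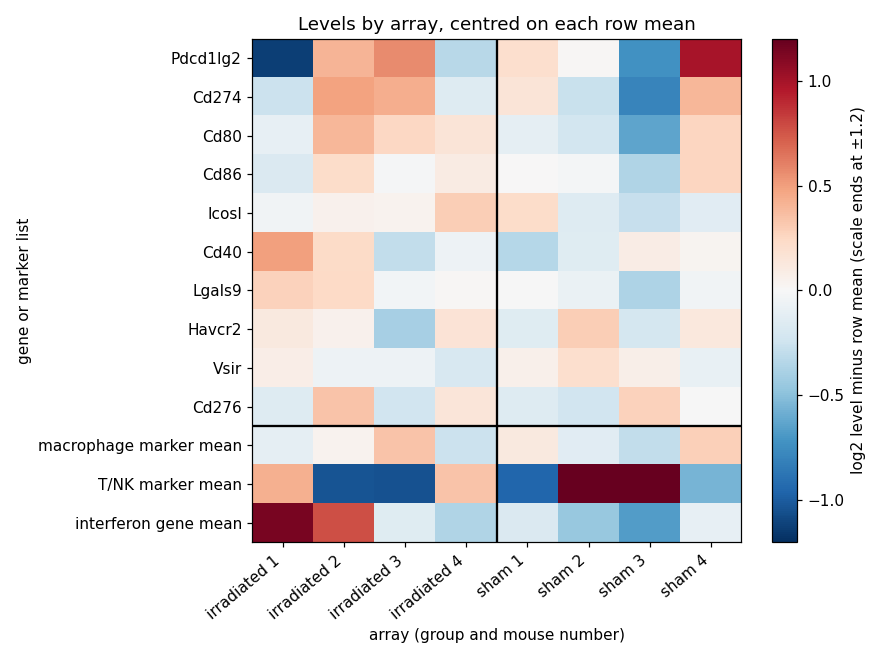
Level of each gene on each array minus the mean of its row (log2; blue below, red above, colours saturating at ±1.2), with 3 marker means under the horizontal line, irradiated mice left and sham mice right of the vertical line. Pdcd1lg2, Cd274, Cd80 and Cd86 share a low value in sham mouse 3, where the T and NK marker mean is highest, and the interferon gene mean is highest in irradiated mice 1 and 2.

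The interferon-stimulated genes of this comparison were high on 2 arrays of the irradiated group. The mean of 14 such genes was 9.31, 8.95, 8.03 and 7.81 in irradiated mice 1 to 4, against 8.00, 7.72, 7.50 and 8.08 in sham mice 1 to 4. All 14 had a positive difference, with a median of 0.67, and 3 of them, Mx1, Mx2 and Cxcl10, had an unadjusted p under 0.05 in limma while 0 passed after adjustment. Cd40 and Lgals9 were also highest on irradiated mice 1 and 2. At the low end they parted: Lgals9 was lowest on sham mouse 3, which had the lowest interferon mean, while Cd40 reached 8.28 there, above the other sham mice, and was lowest on sham mouse 1 at 7.85. Cd274 was at 9.64 in irradiated mouse 1, among its lower arrays, and at 10.38 in irradiated mouse 2, its highest. Whether the interferon genes had a part in the levels of Cd40 and Lgals9 was not tested.

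Genes that share a receptor, or bind each other, were also set against one another on the same array, which removes what an array has in common for both. These 3 pairs were chosen by their receptors after the values were seen, and the level of such a difference depends on the probes, so that its change between groups is what can be read. Cd80 minus Cd86 was 0.27, 0.37, 0.45 and 0.25 in irradiated mice and 0.086, -0.0028, -0.081 and 0.196 in sham mice. Every irradiated mouse lay above every sham mouse, and the groups differed by 0.29 (two-sided exact permutation p = 0.0286, the smallest that 70 assignments allow, and 0.0857 adjusted over the 3 pairs). Cd80 minus each other gene of the array was free of overlap for 8.1% of 22179 genes. Leaving out 1 array at a time gave 0.24 to 0.33, with exact permutation p of 0.0571 without any one irradiated mouse. Without sham mice 2 and 3 the difference was 0.194 (exact permutation p = 0.133).

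Cd274 minus Pdcd1lg2 averaged 2.30 ± 0.44 in irradiated mice and 1.80 ± 0.25 in sham mice (SD, n = 4 each). The difference of 0.49 (two-sided exact permutation p = 0.0857, also after adjustment) was 0.29 without irradiated mouse 1 and 0.62 without irradiated mouse 3, and the groups overlapped. For Cd274 minus each other gene, 0.46% of genes gave no overlap. Lgals9 minus Havcr2 averaged 2.53 ± 0.22 in irradiated mice and 2.26 ± 0.22 in sham mice, a difference of 0.28 (two-sided exact permutation p = 0.0571, and 0.0857 adjusted). Its groups overlapped through irradiated mouse 4 and sham mouse 1, and Lgals9 minus each other gene was free of overlap for 13.9% of genes.

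**Figure D4:**
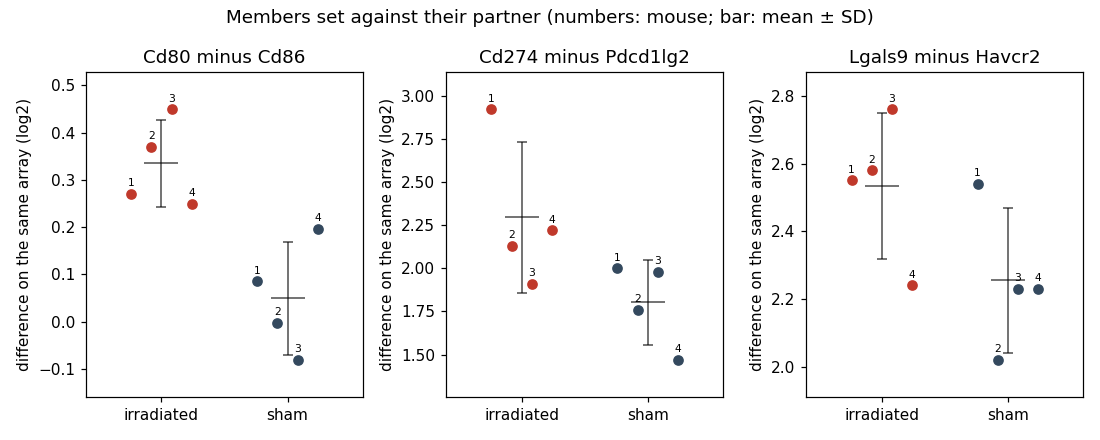
Log2 level of one gene minus that of its partner on the same array, for Cd80 minus Cd86, Cd274 minus Pdcd1lg2 and Lgals9 minus Havcr2, irradiated mice left and sham mice right, with mouse numbers and the mean and SD (n = 4 each). Only in the first panel do all 4 irradiated mice lie above all 4 sham mice.

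Genes whose levels ran most like those of the most variable members were named from the 22179 others by Pearson r over 8 arrays, as a description. Cd274 was most like the transcript 9130230L23Rik (0.988), C5ar1, which encodes the receptor for complement C5a (0.984), and Gadd45b, a stress-induced gene (0.982). Pdcd1lg2 was most like Cxcl16, which encodes a chemokine of macrophages (0.987), Dpagt1, an enzyme gene of N-glycosylation (0.981), and Poteg (0.981). The levels of Poteg and 9130230L23Rik averaged 2.93 and 4.49 over the 8 arrays, under the median of all rows. Cd80 was most like Gdap10 (0.964), Osm, which encodes the cytokine oncostatin M (0.954), and Slc25a51, a mitochondrial carrier gene (0.948). Gadd45b varied widely, at 10.21, 11.19, 11.46 and 10.44 in irradiated mice and 10.98, 10.08, 9.57 and 11.28 in sham mice. Like Cd274 it was lowest in sham mouse 3, and its groups overlapped.

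Lymphocyte costimulatory and checkpoint molecules were measured in the same sorted cells, among them the partners CD28, CTLA-4, ICOS, PD-1 and CD40 ligand of the molecules above and others that bind none of the 10. Of these 15, 14 were lower in irradiated mice, against 57.8% of all genes, with a median difference of -0.21. Their mean was 5.71, 5.67, 5.73 and 5.99 in irradiated mice and 5.63, 6.37, 6.31 and 5.89 in sham mice. Like the T and NK marker mean, it was highest on sham mice 2 and 3. Tnfrsf9 ran otherwise, at 8.90 and 8.47 in sham mice 2 and 3 and 10.01 in sham mouse 4. Cd28 stood at 5.27 ± 0.16 in irradiated mice and 5.65 ± 0.53 in sham mice, and Pdcd1, which encodes PD-1, at 4.86 ± 0.48 in irradiated mice and 5.07 ± 0.65 in sham mice (SD, n = 4 each). Ctla4, Icos and Cd40lg had differences of -0.40, -0.14 and -0.19. The mean level of Cd40lg over the 8 arrays, 3.40, lay under 4.70, the median of all rows. Btla, an inhibitory receptor of lymphocytes that binds HVEM, was the one with an unadjusted p under 0.05 in limma. Its levels were 6.43, 6.01, 5.70 and 6.00 in irradiated mice, against 6.29, 6.60, 6.81 and 6.54 in sham mice, where irradiated mouse 1 exceeded sham mouse 1, and its difference was -0.52 (adjusted p = 0.819 in limma).

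Other ligands and receptors of the same kind, 26 in number, gave 15 higher and 11 lower, with a median difference of 0.02. Of these 26, 6 had a mean level under 4.70. Tnfsf4, which encodes the costimulatory OX40 ligand, was the one with an unadjusted p under 0.05 in limma, at 5.64, 6.43, 7.71 and 6.94 in irradiated mice and at 5.03, 4.23, 4.29 and 5.14 in sham mice. Its groups did not overlap, as for 1.12% of all genes on the higher side, and its adjusted p was 0.624 in limma. Of 15 measured genes of CD40 and NF-kB signalling, 8 were higher and 7 lower, with a median difference of 0.0017. Traf5, an adaptor of TNF receptor family signalling, stood at 6.25 ± 0.28 in irradiated mice and 6.69 ± 0.26 in sham mice (adjusted p = 0.819 in limma). Of 14 measured genes tied to the induction or stability of PD-L1, among them its restraint Socs1, 6 were higher and 8 lower, with a median difference of -0.03. Ifngr1, a chain of the interferon gamma receptor, stood at 10.67, 10.56, 10.35 and 10.47 in irradiated mice and at 10.79, 11.05, 10.61 and 10.82 in sham mice. Irradiated mouse 1 alone exceeded a sham mouse, and the difference was -0.30 (adjusted p = 0.819 in limma).

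Markers of other cells known to carry CD40, CD80, CD86 or B7-H3 were also read. Of all genes, 57.8% were lower in irradiated mice. Of 11 dendritic cell markers, 9 were lower in irradiated mice, and their mean ran from 6.20 to 6.51 in irradiated mice and from 6.41 to 6.92 in sham mice. Ccr7, the homing receptor of mature dendritic cells, was the one with an unadjusted p under 0.05 in limma, at 5.99, 7.03, 6.68 and 5.98 in irradiated mice and 7.22, 6.76, 7.69 and 8.05 in sham mice (adjusted p = 0.819). Of 9 B cell markers, 7 were lower, and 3 of the 9 had a mean level under 4.70. Their mean ran from 4.79 to 5.25 in irradiated mice and was 5.09, 5.28, 5.95 and 4.89 in sham mice. Sham mice 1 and 4 thus lay within the irradiated range. Blk, a B cell kinase gene, was 4.39 ± 0.13 in irradiated mice and 4.71 ± 0.14 in sham mice (SD, n = 4 each), with no overlap, as for 2.56% of all genes on the lower side (adjusted p = 0.819 in limma). Its mean over the 8 arrays, 4.55, also lay under 4.70. Neutrophil markers were lower for 11 of 13, with means of 6.16 to 7.51 in irradiated mice and 7.10 to 8.49 in sham mice. Of the 13, 2 had a mean level under 4.70. Epithelial, fibroblast and endothelial markers were lower for 7 of 12, with means of 6.44 to 7.37 in irradiated mice and 6.19 to 7.59 in sham mice. Among them Epcam, an epithelial adhesion gene, had the smallest p, with a difference of -0.23 (adjusted p = 0.898 in limma). The part of T and NK cells, dendritic cells, B cells, neutrophils and tumour or stromal cells in the levels of the 10 genes was not tested.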

How the data were processed

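Total RNA of the sorted cells, 25 ng, was amplified by ribo-SPIA, per the labels' protocols. The authors deposited log2 expression values per probe set, for which the submitters' processing notes name RMA and Partek without versions or settings. Of 34365 rows, the 23521 with 1 gene symbol were kept, the brightest row for each of the 1082 symbols that had several. This left 22180 genes, and each of the 10 had 1 row. The 4 irradiated and 4 sham mice were set against each other in limma 3.58.1 (R 4.3.3), which was tested on simulated data; p-values are two-sided and adjusted by Benjamini and Hochberg's method across the whole table. No dim genes were removed, and detection calls and batches were not used here. Precision is limited by having 4 arrays a group. Correlations were tested by exact permutation over 40320 pairings and adjusted over 45 pairs. Of 163 listed symbols 153 were measured. Genes named are the 10, the sort markers, 5 T cell partners of the 10, from each other list those with an unadjusted p under 0.05 or else the smallest p, and the 3 genes most like each of the 3 most variable members. Tnfrsf9 is named besides, for running unlike the mean of its list. The members and lists were chosen with earlier results of these data known. Dixon's test (critical value 0.829) on 80 groups of 4 arrays set no array apart. Alternatives were other normalizations, row rules, a filter on dim genes, variance models, array weights, a mouse number block, arrays left out and 1 covariate. Plots were made with matplotlib 3.10.9.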

Additional observations from a re-analysis of the deposited data

How the results depend on the processing

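With 10 genes and 18 alternatives, no gene of the 10 passed the adjusted threshold in limma. Quantile normalization brought 2 of the 10, Cd80 and Lgals9, to an unadjusted p under 0.05 in limma. Of all 22180 genes, 1265 reached it. Lgals9 alone of the 10 was then without overlap of the groups. A trended and robust variance brought 1, Lgals9, to that p, and 1302 of all genes. With each array left out in turn, 0 to 1 of the 10 reached an unadjusted p under 0.05, as did 1093 to 1403 of all genes. In those fits 0 to 2 of the 10 were without overlap, and 0 to 1 genes of the whole array passed the adjusted threshold. Shares of all genes without overlap are not given for these alternatives, and groups separate more easily with 3 arrays in one of them. The sign of Havcr2 turned under quantile normalization (0.014) and with the T and NK marker mean as a covariate (0.026). Havcr2 ranged from -0.104 to 0.097 with arrays left out, where leaving out sham mouse 2 gave 0.063 and sham mouse 4 0.0053. With 1 array left out Pdcd1lg2 ranged from -0.52 to 0.096, with 0.048 without sham mouse 4 and -0.72 without sham mice 2 and 3 together, Cd276 from -0.051 to 0.157, with -0.013 without sham mouse 2, and Cd86 from -0.046 to 0.159. Without sham mice 2 and 3 the sign turned for Cd86 (-0.096) and Cd274 (-0.153), and with the covariate for Cd86 (-0.022) and Cd274 (-0.0096). Cd40, Cd80, Icosl, Lgals9 and Vsir kept their sign under all 18 alternatives. Some of these could not move a difference: the filter on dim genes, the row rules, the trended and robust variance and the mouse number block. Same-numbered mice of the 2 groups showed no positive likeness: their deviations from the group means correlated at -0.28 to -0.144. Values for unlike-numbered mice are not given here, so whether the numbers pair the groups cannot be read from this. With the mouse number as a replicate block 0 of the 10 passed. Each number holds 1 array of each group, so the block cannot move a difference, and that of Lgals9 stayed at 0.248. The causes of these changes were not tested. With 4 arrays a group, differences under the half-width of each interval could not be told from 0.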
